A study of Mus musculus with 5 samples.

Results

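The 4 genes of the SDF-1 axis were followed in 5 clones of mouse cardiac progenitor cells: Cxcl12, which encodes the chemokine SDF-1, its receptors Cxcr4 and Ackr3, and Dpp4, which encodes a protease of SDF-1. The study, by its title, concerns differences in SDF-1 production between such cells. All 9 probe sets annotated to 1 of these symbols alone were taken, out of 45101 probe sets and out of 18193 genes with a probe set of their own. Cxcl12 had 3 of them, Dpp4 4, and Cxcr4 and Ackr3 1 each.

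Clones 1D, 11B, 20B, 30 and 42 came from the left ventricles of adult mice aged 5 to 6 months, with the strain given as C67BL/6. Cells were selected with an antibody to Sca-1, expanded, cloned with rings and subcloned 1 to 2 times, and are labelled c-kit positive. No agent or genetic change was given to any of them. Each group is 1 clone measured on 1 Affymetrix array, so there is no replicate, no test and no p-value, and differences are described by their size against fixed steps. How many animals gave the clones was not stated, and each clone stands for itself alone.

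SDF-1 is a secreted chemokine held on heparan sulphate at cell surfaces, where it guides progenitor, endothelial and blood cells and helps to build vessels. It signals through Cxcr4, a receptor coupled to inhibitory G proteins. Ackr3, formerly named Cxcr7, binds the same chemokine, recruits arrestins and takes it out of the medium. Dpp4, the surface peptidase CD26, removes the first residues of SDF-1 and so ends its action on Cxcr4.

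The start region of Cxcl12 is shown because this gene alone among the members differed by more than 1 log2 unit between clones. It spans chr6:117168285-117168584 of GRCm38.p6 on the plus strand, from 250 bases before to 50 after the gene's start in RefSeq, and is 64.7% G and C. Capitals mark the GC box GGGCGG, searched on both strands:

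Cxcl12 promoter: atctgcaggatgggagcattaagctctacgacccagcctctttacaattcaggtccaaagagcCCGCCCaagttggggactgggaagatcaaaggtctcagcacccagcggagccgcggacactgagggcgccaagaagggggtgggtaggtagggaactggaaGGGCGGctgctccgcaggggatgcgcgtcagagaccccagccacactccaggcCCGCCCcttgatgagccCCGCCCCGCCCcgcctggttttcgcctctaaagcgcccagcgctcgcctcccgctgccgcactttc

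The window held 5 GC boxes, and the last 2 share 1 base. A GC box occurred in 35.7% of 32851 RefSeq promoter windows of the same length, and at least 5 in 2.71%. The windows of Cxcr4, Ackr3 and Dpp4 held 3, 1 and 0. The core of the hypoxia response element, ACGTG, was not found in the windows of the 4 genes, against 19.6% of all windows. The TATA motif TATAAA was found 0 times in the window of Cxcl12, 2 times in that of Cxcr4 and 1 time each in those of Ackr3 and Dpp4, against 13.6% of all windows. These letter matches are a description of the genome, and no promoter activity was measured.

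The deposited values are linear ratios. Of all probe sets, 18926 had a median of exactly 1 over the clones, as if divided by their own median, and 26175 (58.0%) had a median below 1 and are called here at the floor. On both kinds 1 probe set can be compared between clones, but no level can be compared between probe sets or genes. A probe set was counted as measured if its median was 1 or any clone lay above 1, and if its range exceeded 0.05 log2 units. Of the 9 probe sets, 6 lay at the floor. Measured were 4, the 3 with a median of 1 and 1 floor probe set of Cxcl12, on which clone 11B lay well above the rest. The spread of a single probe set, taken from 6681 pairs of measured probe sets of the same gene, was 0.30 log2 units (SD). The 18 hybridization controls had an SD of 0.08. Differences from culture or RNA preparation are not part of this error.

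Cxcl12 was highest in clone 11B on both of its measured probe sets and, on 1 of them, far below the other clones in clone 30. On probe set 1448823_at the ratio was 1.89 in clone 11B, against 0.997 in clone 1D, 1.00 in clone 20B, 0.307 in clone 30 and 1.00 in clone 42. One clone thus stood above and 1 below, and the other 3 lay together. On probe set 1417574_at the ratio was 2.78 in clone 11B, against 0.984 in clone 1D, 0.987 in clone 20B, 0.974 in clone 30 and 1.06 in clone 42. Here clone 11B stood apart, and clones 1D, 20B and 30 lay within 0.02 log2 units of each other, clone 30 nominally lowest. On probe set 1439084_at, at the floor in all clones, the ratios were 0.920 in clone 11B, 0.794 in clone 1D, 0.925 in clone 20B, 0.965 in clone 30 and 0.925 in clone 42. Here clone 30, not clone 11B, was nominally the highest.

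**Figure D1:**
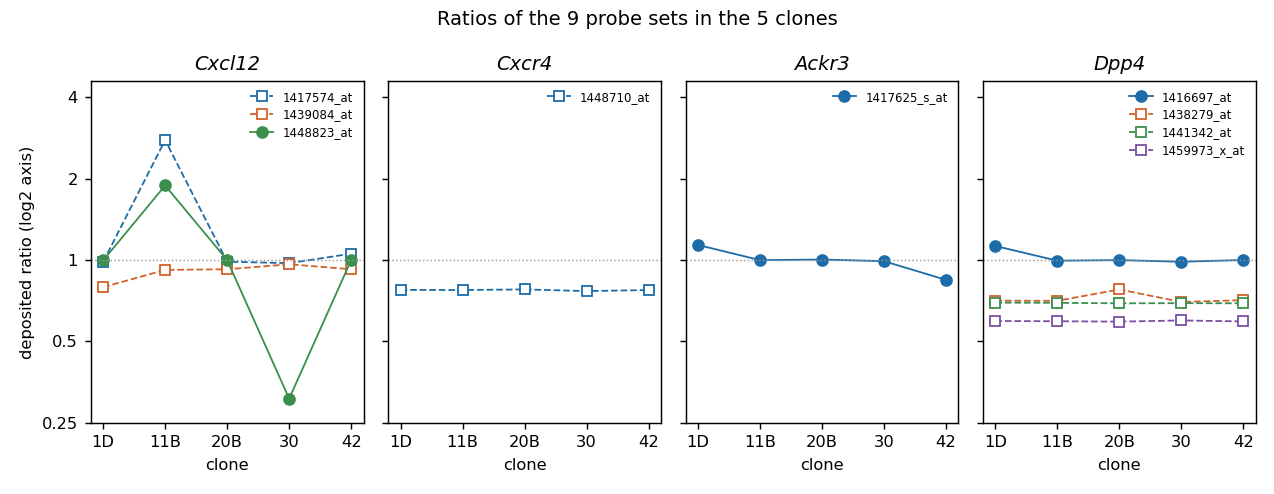
Deposited ratio (log2 axis) of each of the 9 probe sets in clones 1D, 11B, 20B, 30 and 42; filled circles are probe sets with a median of 1 and open squares those at the floor, 1 array per clone, and lines only join the values of 1 probe set. Cxcl12 stands out in clone 11B, at 1.89 and 2.78, and in clone 30, at 0.307, while Cxcr4, Ackr3 and Dpp4 stay between 0.592 and 1.14.

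These single values were far out among probe sets of their own kind. A ratio of 1.89 or more in clone 11B was reached by 131 of the 18926 probe sets with a median of 1 (0.692%), and a ratio of 0.307 or less in clone 30 by 62 of them (0.328%). At the floor, a ratio of 2.78 or more in clone 11B was reached by 2 of 26175 probe sets, 1417574_at and a probe set of Anapc16 at 2.92. Floor probe sets differ in their medians, and that of 1417574_at, at 0.987, was close to 1. This count therefore does not rank how far clone 11B stood above the other clones. Anapc16 is named because the count was small, after its values were seen.

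The values of clones 1D, 20B and 42 on 1448823_at carried little about Cxcl12 itself. The identical 3 ratios were found for the same clones on 376 further probe sets and so are a level shared by many genes. Among those 376, clone 11B ranged from 0.289 to 1.72 and clone 30 from 0.454 to 3.37. Both Cxcl12 values therefore lay outside the span of the probe sets that shared the other 3 ratios. The same sharing means that the order of 1D, 20B and 42 cannot be read.

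Averaged over its 2 measured probe sets, Cxcl12 had log2 ratios of 1.20 in clone 11B, 0.04 in clone 42, -0.01 in clone 20B, -0.01 in clone 1D and -0.87 in clone 30. The gaps between clones 42, 20B and 1D, neighbours in this order, were at most 0.05, below the spread of 0.30. The steps above them to clone 11B and below them to clone 30 exceeded it. The whole range of this average was 2.07 log2 units, and 130 measured genes, Cxcl12 included, ranged at least as far. It depends on the probe sets averaged, since it was 2.62 on 1448823_at alone and 1.36 with all 3 probe sets. Without clone 11B the range was 0.91, and without clone 30 it was 1.21.

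Across all 9435 measured genes, 1229 (13.0%) ranged over at least 1 log2 unit and the median range was 0.41. Of the 3 measured members, 1 did so, which was Cxcl12. In clone 11B its distance to the median of the other 4 clones was 1.21 log2 units, and 64 genes (0.678%) lay at least 1 higher there. It fell short of 1 with 1439084_at included, at 0.84, and on 1448823_at alone, at 0.92. In clone 30 it lay at -0.89 relative to the others, short of the step of 1 log2 unit that 159 genes (1.69%) passed downwards. It passed that step on 1448823_at alone, at -1.70, and lay at -0.57 with 1439084_at included. On 1417574_at alone it lay at -0.07.

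**Figure D2:**
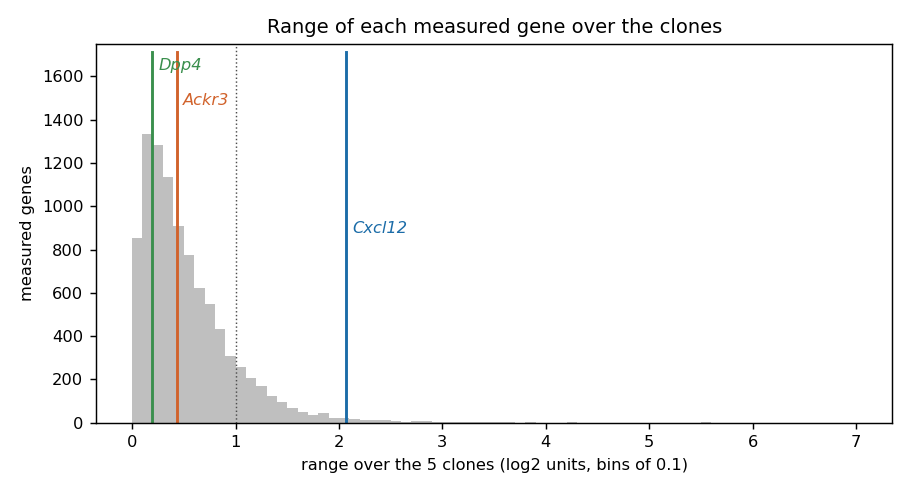
Histogram of the range over the 5 clones in log2 units (bins of 0.1) for the 9435 measured genes, with coloured lines at Cxcl12, Ackr3 and Dpp4 and a dotted line at 1 log2 unit. Cxcl12, at 2.07, lies in the thin right tail, while Ackr3, at 0.43, and Dpp4, at 0.19, lie in the body of the distribution.

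The 2 probe sets agreed less on clone 30 than on clone 11B. Relative to each probe set's median, the difference of 1448823_at minus 1417574_at was -0.58 log2 units in clone 11B, a size that 12.4% of such differences over all genes reached. In clone 30 it was -1.68, a size that 0.70% reached. The height of clone 11B is thus carried by 2 probe sets and the low place of clone 30 by 1.

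All 10 pairs of clones were then compared for Cxcl12, on each measured probe set because the 2 differ. On 1417574_at 4 pairs were at least 1 log2 unit apart, each with clone 11B, which was 2.63-fold to 2.85-fold above the other clones. On 1448823_at 4 pairs were that far apart, each with clone 30. There clone 11B was 6.15-fold above clone 30 and 1.89-fold above clones 1D, 20B and 42, and these 3 were 3.25-fold to 3.26-fold above clone 30. On the average of both probe sets clone 11B was 4.19-fold above clone 30, a difference that 41 of the measured genes reached, but with all 3 probe sets averaged it was 2.56-fold. The folds are thus those of a probe set or an average and give no single value for the gene.

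The RNA of these arrays was not equal. For Actb, a control for RNA length, the 5' over 3' ratio was 0.597 in clone 11B and 0.743 in clone 30, against 1.08 in clones 1D and 42 and 1.00 in clone 20B, to which it was scaled. The clones with the highest and the lowest Cxcl12 were thus those with the lowest Actb ratios. The same ratio for Gapdh was 0.893 in clone 11B and 0.966 in clone 30, against 1.00 to 1.12 in the others. The 18S probe sets read 0.411 to 0.555 in clone 11B and 1.00 in clone 30, against 0.651 to 1.57 in clones 1D, 20B and 42. Their part in the Cxcl12 values was not tested.

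Cxcr4, the signalling receptor, was flat at the floor. Its 1 probe set, 1448710_at, had ratios of 0.776 in clone 1D, 0.775 in clone 11B, 0.779 in clone 20B, 0.768 in clone 30 and 0.775 in clone 42. All clones lay at the floor within 0.02 log2 units, below the error of the hybridization controls. A place at the floor gives no level. Col1a2, which encodes a chain of collagen I, was just as flat, with all 3 of its probe sets between 0.550 and 0.640, while Col1a1, the gene of the partner chain, was measured on both of its own.

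Ackr3, the scavenging receptor, differed little between clones. On probe set 1417625_s_at the ratio was 1.14 in clone 1D, 1.00 in clone 11B, 1.01 in clone 20B, 0.991 in clone 30 and 0.845 in clone 42. Clone 1D was the highest and clone 42 the lowest. The range was 0.43 log2 units, 1.35-fold, close to the median of all measured genes at 0.41, and 4518 genes ranged at least as far. Neighbouring clones in this order differed by at most 0.23 log2 units, less than the spread of a single probe set. The whole range exceeded that spread.

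The ratios of clones 11B, 20B and 30 on this probe set were shared with 640 others. Among those, clone 1D was at or above the Ackr3 value on 53, and clone 42 at or below it on 27. Of the 10 pairs, none reached 1 log2 unit, and the most distant, clone 42 against clone 1D, lay at -0.43. The suffix of the probe set marks possible cross-hybridization, and no other probe set of Ackr3 was at hand. Clone 11B, where Cxcl12 was highest, had a middling Ackr3 value of 0.00 on the log2 scale.

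Dpp4 was higher in clone 1D than in the others on 1 probe set, by a small margin. On 1416697_at the ratio was 1.13 in clone 1D, against 0.995 in clone 11B, 1.00 in clone 20B, 0.986 in clone 30 and 1.00 in clone 42. The 4 lower clones spanned 0.02 log2 units, and their identical ratios were found on 96 other probe sets, on 27 of which clone 1D was at least as high. The range of 0.19 log2 units was below the spread of 0.30, and 7320 genes ranged at least as far. Without clone 1D it was 0.02, too small for the probe set to count as measured. Dpp4 thus counted as measured only through clone 1D, so it had to differ there.

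The other 3 probe sets of Dpp4 lay at the floor. On 1438279_at the ratio was 0.779 in clone 20B, against 0.700 to 0.711 in the other 4 clones, so the clone that stood out was not the one of the measured probe set. On 1441342_at the ratios were 0.692 to 0.696 and on 1459973_x_at 0.592 to 0.598, flat in all clones. Between clones 11B and 30, which differed most in Cxcl12, the measured probe set of Dpp4 differed by 0.01 log2 units and that of Ackr3 by 0.01. All these differences were therefore far smaller than that of Cxcl12.

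The genes most like Cxcl12 were sought among 9023 measured genes, after centring each gene on its median, by the root mean square difference over the 5 clones. The closest was Cfap36, a gene of cilia and flagella, at a difference of 0.08 log2 units. Its ratio was 2.43 in clone 11B, against 1.00 in clone 1D, 1.08 in clone 20B, 0.518 in clone 30 and 1.00 in clone 42. Next came Pcbp3, an RNA-binding protein, at 0.14, Eif4ebp2, a repressor of translation initiation, at 0.16, and C1galt1, an enzyme of O-glycan synthesis, at 0.17. Lrfn3, an adhesion molecule of synapses, and Sar1a, a GTPase of vesicle coats, followed at 0.22 each. Ppa1, a pyrophosphatase, and Igsf3, a membrane protein with immunoglobulin domains, lay at 0.23 each.

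All 8 were highest in clone 11B, with log2 ratios of 0.78 to 1.54, and lowest in clone 30, with -1.14 to -0.40, as genes chosen for likeness would be. Ppa1 had 1 measured probe set, with ratios of 1.72 in clone 11B and 0.454 in clone 30, against 0.997 in clone 1D, 1.00 in clone 20B and 1.00 in clone 42. Those 3 are the shared ratios seen on 1448823_at, so its likeness in these clones is that shared level. Of the 8 genes, 6 rested on 1 probe set. The ranking was not stable, since 4 of the 8 stayed among the closest by correlation, 1 when 1448823_at was used alone and 0 when 1417574_at was. Neither Ackr3 nor Dpp4 reached the range of 0.5 log2 units set for such a search.

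**Figure D3:**
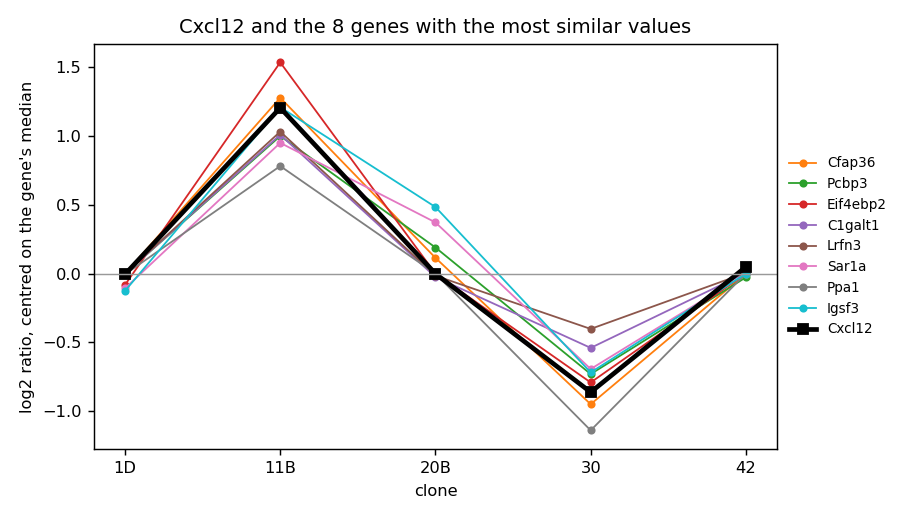
Log2 ratio centred on the gene's median (y axis) in the 5 clones for Cxcl12, drawn as a thick black line, and the 8 genes with the smallest root mean square difference from it, 1 array per clone. All 9 peak in clone 11B and are lowest in clone 30, with Cfap36 nearest at 0.08.

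The wider pathway was read from 8 lists that include the members, 109 genes in all, of which 100 had a probe set of their own and 72 were measured. Of these, 18 ranged over at least 1 log2 unit (25.0%), against 13.0% of all measured genes, and their median range was 0.51, against 0.41. With every probe set averaged, 8 of 100 did so (8.0%), against 3.74% of all genes. Without clone 11B the count was 11, and with 0.1 added to each ratio it was also 11. In clone 11B, 3 pathway genes (Cxcl12, Adm and Mmp3) exceeded the others' median by at least 1 log2 unit (4.17% of the 72, against 0.678% of all measured genes), and 1 (Cebpb) lay that far below it (1.39%, against 0.806%). In clone 30, 1 pathway gene (Ada) lay that far above (1.39%, against 1.25%) and 6 lay that far below (8.33%, against 1.69%). The lists were chosen with earlier results of these data known and include Cxcl12, so these shares are a description only. Ada, at the floor, counted as measured only through clones 30 and 42, and Sdc4 only through clone 42.

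Of the other ligands of the SDF-1 receptors 2 were measured. Adm, the gene of adrenomedullin, a vasoactive peptide that Ackr3 also takes up, was higher in clones 11B and 20B and lower in clones 30 and 42. On 1447839_x_at its ratio was 2.65 in clone 11B, 3.37 in clone 20B, 0.281 in clone 30, 0.319 in clone 42 and 1.00 in clone 1D. On 1416077_at it was 1.95, 2.08, 0.749, 0.666 and 1.00 in the same order, so both probe sets gave the same 2 high clones and the same 2 low ones. Adm and Cxcl12 were thus both high in clone 11B and low in clone 30, but in clones 20B and 42 only Adm departed from its median.

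Mif, a cytokine that can bind Cxcr4, had a ratio of 1.26 in clone 11B, 1.11 in clone 42, 1.00 in clone 30, 0.963 in clone 20B and 0.630 in clone 1D on 1416335_at. It was lowest in clone 1D, and its range was 1.00 log2 units. Its 2 other probe sets lay at the floor. Cxcl11, the other chemokine bound by Ackr3, was not measured, at 0.991 to 1.01 on 1 probe set and 0.672 to 0.676 on the other.

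Of 11 genes of other proteases that can cut SDF-1, 3 were measured. Mmp3, the metalloproteinase stromelysin, had ratios of 2.18 in clone 11B, 3.13 in clone 42, 1.00 in clone 1D, 0.664 in clone 20B and 0.134 in clone 30, on 1 probe set. Its range of 4.54 log2 units exceeded that of Cxcl12, and clone 30 was again the lowest. Mmp14, a membrane-bound metalloproteinase, was highest in clone 42 on each of its 3 probe sets, at 1.50 to 1.89, and its range was 1.01. Cpn1, a subunit of a plasma carboxypeptidase, ranged over 0.27. It lay at the floor and counted as measured only through clone 11B, at 1.05, so it had to be higher there. Mmp2, Mmp9, Ctsk and Cpm lay at the floor on all of their probe sets.

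Among 11 relatives and partners of Dpp4, 7 were measured and 1 reached 1 log2 unit (14.3%, against 13.0% of all measured genes). That was Ada, adenosine deaminase, which human Dpp4 binds at the cell surface, with ratios of 2.25 in clone 30, 1.40 in clone 42, 0.957 in clone 11B, 0.913 in clone 20B and 0.893 in clone 1D. Its 1 probe set lay at the floor, with a median of 0.957. Ada counted as measured only through clones 30 and 42, the clones where it was higher. Dpp7, a lysosomal dipeptidyl peptidase, ranged over 0.80 with its lowest value of -0.53 in clone 1D, Cav1, the caveolin of caveolae, over 0.66 and Prep, prolyl endopeptidase, over 0.51. Fap, the closest relative of Dpp4, lay at the floor in all clones, at 0.521 to 0.524.

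Of 13 measured genes of receptor coupling and regulation, 3 reached 1 log2 unit (23.1%, against 13.0% of all measured genes). As gene averages, all 3 were lowest in clone 30, the lowest clone for 33.7% of all genes with such a range. Cd44, a hyaluronan receptor and partner of Cxcr4, had ratios of 0.266 in clone 30 and 0.659 in clone 11B, against 1.00 to 1.19 in clones 1D, 20B and 42. Its 3 other probe sets lay at the floor. Grk5, a kinase that desensitises receptors, was lower in clones 30 (0.504) and 11B (0.784) than in clones 1D (1.84) and 42 (1.71), with 1.00 in clone 20B. Gnb1, a G protein beta subunit, had log2 ratios of -0.65 in clone 30 and 0.65 in clone 11B. Its 2 measured probe sets differed, at 0.406 and 1.00 in clone 30 and at 1.00 and 2.48 in clone 11B. On the second of them clone 42, at 0.846, and not clone 30 was the lowest. Gnai2, an inhibitory alpha subunit that couples to Cxcr4, ranged over 0.82.

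Of 18 measured kinases and effectors, 3 reached 1 log2 unit (16.7%, against 13.0% of all measured genes). Crk, an adaptor of focal adhesions, had a ratio of 1.85 in clone 1D, 0.555 in clone 11B, 1.00 in clone 20B, 0.369 in clone 30 and 1.09 in clone 42 on the 1 probe set that was measured. Rock1, a kinase of actin contraction, was highest in clone 1D on each of its 4 measured probe sets, at 1.33 to 3.47. Pxn, which encodes paxillin, ranged over 1.02, but its probe sets disagreed, at 1.24, 0.345 and 1.09 in clone 11B. Cdc42, a GTPase of cell polarity, ranged over 0.97 with its highest log2 ratio of 0.72 in clone 20B.

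Of 14 measured genes listed as acting on the expression of Cxcl12 or Cxcr4, which include Vhl, a gene that lowers Hif1a, 3 reached 1 log2 unit. That was 21.4%, against 13.0% of all measured genes. Tgfb1, a growth factor of matrix formation, had a ratio of 1.71 in clone 1D, 1.00 in clone 11B, 1.06 in clone 20B, 0.571 in clone 30 and 0.578 in clone 42. Cebpb, a transcription factor of inflammation, was lowest in clone 11B, at 0.626 and 0.362 on its 2 probe sets, against 0.709 to 1.23 in the other clones. Nrf1, a factor that drives mitochondrial genes, ranged over 1.05 on the 1 probe set that was measured. Hif1a, the hypoxia-inducible factor, just missed the step at 0.99, with a log2 ratio of -0.72 in clone 11B. That value came from 1448183_a_at, at 0.227, while its 2 other measured probe sets read 0.982 and 0.998 there. In clone 11B the highest Cxcl12 thus stood beside the lowest Cebpb and Hif1a averages of the 5 clones.

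Of 12 measured genes of heparan sulphate carriers and synthesis, 3 reached 1 log2 unit (25.0%, against 13.0% of all measured genes). All 3 were syndecans, the transmembrane carriers of these chains. Sdc1 was highest in clone 30 on each of its 4 probe sets, at 1.30 to 2.07. Sdc3 was highest in clone 1D, with a log2 ratio of 0.61 there. Sdc4 had a ratio of 1.96 in clone 42, against 0.971 to 1.00 in the other 4 clones. It counted as measured only through clone 42, so it had to differ there. Gpc1, a carrier anchored by lipid, ranged over 0.72 with its lowest value of -0.55 in clone 42. Over the 18 pathway genes that reached the step, clone 30 was the lowest for 9 and clone 1D the highest for 7 (38.9%). Over all 1229 genes that reached it, clone 30 was also the most frequent lowest clone, at 33.7%, and clone 1D was the highest for 22.2%.

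**Figure D4:**
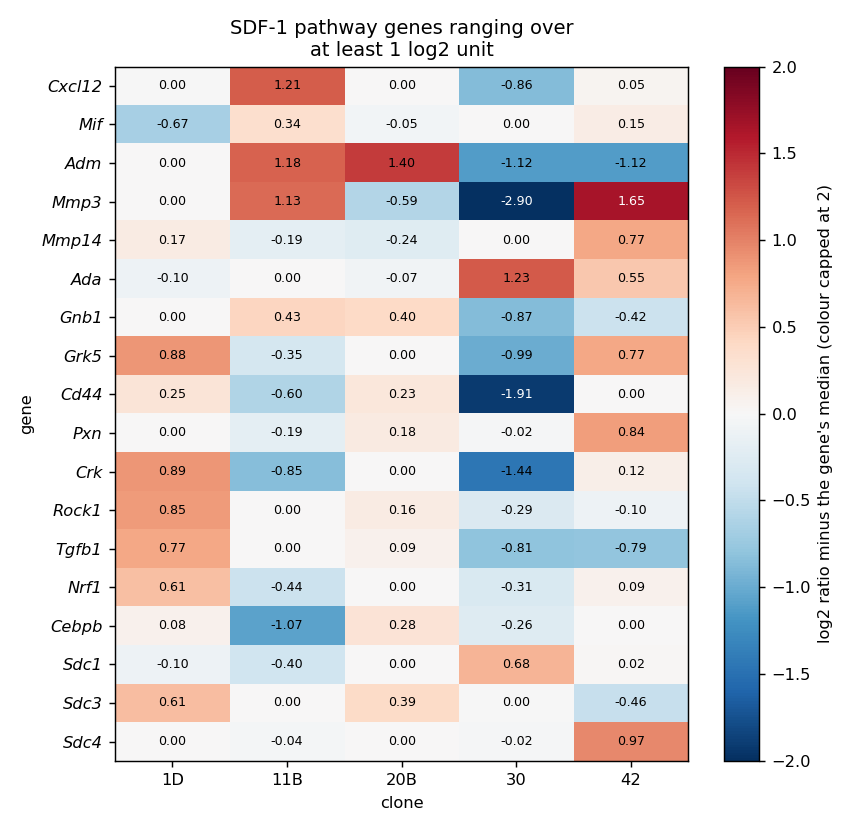
Log2 ratio minus the gene's median over the clones, printed in each cell and shown by colour (capped at 2), for the 18 pathway genes that ranged over at least 1 log2 unit, with genes down the page and clones across. Clone 30 is the lowest for 9 of the 18, against 33.7% of all genes with such a range, with Cxcl12 (-0.86), Mmp3 (-2.90) and Cd44 (-1.91) among them.

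The labelled markers of the cells could be checked only in part. Kit, the gene of c-kit, had a ratio of 1.18 in clone 20B and 0.991 to 1.00 in the other clones on 1 probe set, and lay at the floor on the other. Kit counted as measured only through clone 20B, so it had to differ there. Pou5f1, the gene of oct-4, lay at the floor, at 0.572 to 0.580. Ly6a, the gene of Sca-1, had no probe set of its own.

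Markers of other cell types were set beside the clones at the ends of the Cxcl12 order. Because each array holds RNA of many cells, fewer cells of a type and less RNA per cell cannot be told apart. Of 7 mesothelial markers 4 were measured. Krt8, a keratin, was highest in clone 30, with a log2 ratio of 1.50. Upk3b, at 0.44 in clone 30, and Msln, at 0.81, counted as measured only through that clone, so they had to differ there. Krt18, the partner keratin of Krt8, was nominally lowest in clone 30, at -0.02, and Wt1, Krt19 and Upk1b were flat. The summed ratios of the 7 markers over 13 probe sets were 17.2 in clone 30, against 9.28 in clone 11B and 10.01 to 11.8 in the rest. Without the 3 probe sets of Krt8 they were 8.57 in clone 30, against 7.05 in clone 11B and 7.06 to 7.14 in the rest. Of 7 mural markers 3 were measured, and Tagln, an actin-binding protein of smooth muscle, was also highest in clone 30, at 1.83, and next in clone 11B, at 0.60. The mural sums were 14.5 in clone 30 and 12.4 in clone 11B, against 11.6 to 11.9 in the rest. Most of this difference was Tagln, whose 1 probe set read 3.56 in clone 30 and 1.51 in clone 11B, against 0.875 to 1.00. The other measured mural markers, Acta2 and Myh11, ranged over 0.26 and 0.07.

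Of 8 fibroblast markers 3 were measured, with sums of 13.8 in clone 30, 11.7 in clone 11B and 11.4 to 13.7 in the rest. Col1a1 ranged over 2.46, with log2 ratios of 0.33 in clone 30, -0.23 in clone 11B and -2.13 in clone 42. Pdgfra ranged over 1.30, with 0.36 in clone 30, 0.00 in clone 11B and 0.70 in clone 42. In clone 42 these genes thus moved in opposite directions, which the sums hide. Ddr2 ranged over 0.58. Of 7 endothelial markers none was measured, and their sums of 4.79 to 4.86 hardly differed between clones. Of 6 leukocyte markers with a probe set of their own 2 were measured, with sums of 6.74 to 6.87. Of 7 cardiomyocyte markers 3 were measured, with sums of 8.50 to 8.89. High Krt8, but not Krt18, thus stood beside low Cxcl12 in clone 30, and the part of these markers in it was not tested.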

How the data were processed

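The deposited table holds 1 ratio per probe set and clone on a linear scale, as read from the values; the authors' divisor is not stated. The submitters' processing notes name RMA and GCRMA, which summarise probe signals into probe set values, without versions or roles. The median ratio per array was 0.826 to 0.851. The array build was not given in the sources used here, and scanner files were not used.

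Probe sets were named from the platform annotation with symbols checked against RefSeq (GRCm38.p6): 34958 had 1 symbol, 932 several and 9211 none, and 64 controls were set aside. Ratios were turned into log2 and averaged over a gene's measured probe sets. Arrays give no read depth, and their number limits the precision.

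The members, lists and rules were chosen with earlier results of these data known. Named were all members, list genes ranging over at least 1 log2 unit, and the 8 genes most like Cxcl12. Predicted gene models were left out of these 8. Up to 4 measured genes with the largest range were also named from each list. The leukocyte and cardiomyocyte markers, given as sums alone, were the exception. Others are marked in the text. No test was run since each clone had 1 array. Calculations were tested on simulated data. Alternatives changed the probe sets averaged, the scaling, the floor, a pseudocount of 0.1 and the clones used. Python 3.11.15, pandas 2.3.3 and numpy 2.4.6 were used.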

Additional observations from a re-analysis of the deposited data

How the results depend on the processing

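With every probe set averaged, the Cxcl12 range became 1.36 log2 units, its value in clone 11B relative to the others 0.84 and that in clone 30 -0.57, and 681 genes in all and 8 pathway genes ranged over at least 1 log2 unit. With probe sets of median 1 alone, the Cxcl12 range was 2.62 and its value in clone 30 -1.70. With the pseudocount, 11 pathway genes reached the step. By construction these settings change the probe sets or values that enter each average. Leaving out each clone in turn gave Cxcl12 ranges of 0.91 to 2.07, 11 to 17 pathway genes and 772 to 1067 genes in all, with the lowest values without clone 11B for the first 2 and without clone 30 for the last. The value of Cxcl12 in clone 11B stayed between 0.84 and 1.35 and that in clone 30 between -1.70 and -0.57 in all settings. None of these settings used 1417574_at alone, on which clone 11B lay at 1.50 and clone 30 at -0.07. Quantile normalization, median centring, setting values to the floor and dropping cross-hybridizing probe sets moved no member by more than 0.30. Ackr3 could not be measured without those probe sets, nor Cxcr4 with probe sets of median 1. No paired analysis was possible because each clone had 1 array. Depth does not apply, and values at the floor limit what can be seen of Cxcr4 and most Dpp4 probe sets.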

Other observations

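Other chemokine genes gave few readable values. Of 13 other CXC chemokines 3 were measured and none reached 1 log2 unit. Cxcl1, which attracts neutrophils, was highest in clone 30, at ratios of 1.10, 1.20 and 2.11 on its 3 probe sets, and lowest in clone 11B, at 0.829, 0.982 and 0.715, the opposite order to Cxcl12 at both ends. Cxcl16 and Cxcl14 ranged over 0.18 and 0.08 log2 units. Cxcl16, at the floor, counted as measured only through clone 30, and Cxcl14 only through clone 42.

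Of 13 other chemokine receptors with a probe set, 3 were measured. Ccr1, a receptor of inflammatory CC chemokines, had a ratio of 2.00 in clone 30, against 0.513 to 0.575 in the other 4 clones on 1419609_at, while its other probe set was flat at 0.995 to 1.00. Ackr4, a scavenging receptor of homing CC chemokines, was highest in clone 11B on 2 of its 3 probe sets, at 1.89 and 1.96, and at 1.00 there on the third. Cxcr5, a receptor of B cells, ranged over 0.60 log2 units and was highest in clone 42. Its 1 probe set and 1419609_at of Ccr1 lay at the floor. They counted as measured only through clone 42 and clone 30, so they had to be higher there. These values had no replicate check.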
